A study of Homo sapiens with 20 samples.

Results

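The MEF2 transcription factors were represented by MEF2A, MEF2C and MEF2D, 3 of the 17687 genes tested. Their probe sets were found by gene symbol, and the genes were chosen with earlier results of these data known. Each symbol belonged to 1 probe set, TC1500008521.hg.1 for MEF2A, TC0500011418.hg.1 for MEF2C and TC0100016000.hg.1 for MEF2D. All 3 had values in each of the 20 arrays, and no filter on low values was set. In the RefSeq gene table of GRCh38.p14, MEF2A spans chr15:99565417-99716488, MEF2C chr5:88717117-88904105 and MEF2D chr1:156463727-156500775, and all are protein coding.

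The series measured total RNA of Rh30 and Rh41 cells on Clariom S human arrays. Both are alveolar rhabdomyosarcoma lines, tumour cells of the skeletal muscle lineage that carry the PAX3-FOXO1 fusion gene. The question was which genes change when KDM4 enzymes, demethylases of lysines in histone H3, are inhibited or knocked down. Rh41 cells were treated for 48 h with QC6352, an inhibitor of KDM4 enzymes, at 200 nM or with its vehicle DMSO (3 arrays each), and so were Rh30 cells (3 arrays each). Rh30 cells also carried a short hairpin RNA against KDM4B (shKDM4B) or a control hairpin (shControl) for 72 h (2 arrays each), or a small interfering RNA against KDM4C (siKDM4C) or a control (siControl) for 72 h (2 arrays each). No rescue and no second reagent per target is among these groups, so effects through the target and other effects of a reagent cannot be told apart. The labels call the arrays of a group biological replicates without saying whether cultures were separate, so p values measure the spread between these arrays, which may be technical. In RNA of a whole culture, fewer cells of a kind and less RNA per cell cannot be told apart.

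MEF2 proteins are MADS-box factors that bind a short AT-rich element and, in muscle precursors, work together with the myogenic basic helix-loop-helix (bHLH) factors MyoD and myogenin to switch on genes of differentiated muscle. Class IIa histone deacetylases such as HDAC4 and HDAC5 hold them inactive, and calcium-dependent kinases, the phosphatase calcineurin, p38 and ERK5 release or activate them. MEF2A, MEF2C and MEF2D also carry alternative exons whose choice changes their activity in muscle. A probe set of this array gives 1 value for a gene, so the exon choice was not measured.

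MEF2 genes can themselves be targets of MEF2, so the windows before their transcript starts were searched for the MEF2 consensus. The letters before a start are shown for MEF2A, for MEF2C at 1 of its alternative starts, and for MEF2D, with a match in capitals, read 5′ to 3′ on the strand of the gene and taken from RefSeq on GRCh38.p14. The stretches lie at chr15:99565734-99565983 on the plus strand, at chr5:88824345-88824594 on the minus strand and at chr1:156490688-156490937 on the minus strand.
MEF2A: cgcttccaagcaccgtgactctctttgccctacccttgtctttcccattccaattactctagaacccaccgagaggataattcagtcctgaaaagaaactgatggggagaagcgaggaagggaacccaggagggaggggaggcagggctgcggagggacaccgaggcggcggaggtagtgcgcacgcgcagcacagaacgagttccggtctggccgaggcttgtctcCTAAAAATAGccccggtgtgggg
MEF2C: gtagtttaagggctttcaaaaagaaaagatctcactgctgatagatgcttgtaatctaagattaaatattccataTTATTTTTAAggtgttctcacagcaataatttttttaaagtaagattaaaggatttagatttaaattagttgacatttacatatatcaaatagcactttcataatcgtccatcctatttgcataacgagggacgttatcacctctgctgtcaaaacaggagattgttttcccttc
MEF2D: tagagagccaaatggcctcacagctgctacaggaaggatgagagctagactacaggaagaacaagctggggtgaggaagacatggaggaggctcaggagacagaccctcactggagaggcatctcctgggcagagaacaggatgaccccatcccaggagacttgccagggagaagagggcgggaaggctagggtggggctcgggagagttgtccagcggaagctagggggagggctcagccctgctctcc

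The match of MEF2A, CTAAAAATAG, began at position -23 from the start, and the match of MEF2C, TTATTTTTAA, at position -175. The MEF2A match stood in 1 of 3 windows of that gene and the MEF2C match in 1 of 7, and the single window of MEF2D held none. That window belongs to a start at chr1:156490687, inside the gene span. The 5′ end of the MEF2D span, at 156500775 on the minus strand, had no window and was not searched. Each window holds 300 bases, 250 before and 50 after a start. The consensus has 10 letters, and as a class it reads the same on both strands. It was found in 1050 of all 35116 such windows, or 2.99%. A match is a description of the letters, and no match says only that they are not in that window. Among genes known as MEF2 targets, windows of JUN, an immediate early factor, of XIRP1, an actin-binding protein of muscle, and of SRPK3, a muscle kinase, are shown because they hold the same consensus. They lie at chr1:58784068-58784127 and chr3:39192672-39192731 on the minus strand and at chrX:153780945-153781004 on the plus strand.
JUN: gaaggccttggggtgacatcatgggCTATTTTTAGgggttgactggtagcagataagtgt
XIRP1: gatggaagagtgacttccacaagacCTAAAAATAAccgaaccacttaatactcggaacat
SRPK3: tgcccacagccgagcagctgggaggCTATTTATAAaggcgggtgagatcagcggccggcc

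For 10 Rh30 arrays the sample name puts the array in another group than its title, source name and treatment do. The Rh41, shKDM4B and shControl arrays keep their groups by sample name. Comparisons within them keep their fold changes, and only the shared spread of the fit and its p values differ. All values here follow the titles unless a sample name is given, and values by sample name stand beside the results of the MEF2 genes that they change and, as counts, beside the gene lists. Array medians were 6.72 to 6.75 log2 in the 4 arrays titled siRNA, 6.95 to 6.99 in the other Rh30 arrays and 7.22 to 7.25 in the Rh41 arrays, so levels set across these 3 sets of arrays carry that offset. KDM4B was at 6.01 and 6.15 log2 with shKDM4B, against 6.74 and 7.30 with shControl (log2 fold change -0.94, limma adjusted p = 0.0120). With siKDM4C, by title, KDM4C had levels of 6.25 and 6.32 log2, against 6.48 and 6.54 log2 with siControl, and the difference of -0.23 did not pass the test (limma adjusted p = 0.651). DES, the muscle intermediate filament desmin, had group means between 11.17 and 11.76 log2. Of 8 muscle lineage markers, DES among them, 5 fell with QC6352 in Rh30, with a list median of -1.19 log2.

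MEF2C, the MEF2 gene best known from heart and skeletal muscle development, fell in Rh30 cells with QC6352. It was at 7.85, 7.61 and 7.72 log2 in the arrays with QC6352, against 9.41, 8.91 and 9.08 log2 in those with DMSO. Every array with QC6352 was lower than every array with DMSO, by more than the spread within either group. MEF2C fell 2.65-fold (log2 fold change -1.41 ± 0.17 SE, limma adjusted p = 2.47e-06, n = 3 and 3), and 369 genes fell more. By sample name these 3 arrays are the siControl array numbered 2 and both siKDM4C arrays. With groups by sample name the difference between QC6352 and DMSO in Rh30 was 0.15 log2 (limma adjusted p = 0.773).

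MEF2D, expressed in many tissues and needed in muscle differentiation, moved the other way in the same arrays. Its level was 9.47, 9.18 and 9.33 log2 with QC6352, against 8.93, 8.92 and 8.92 log2 with DMSO. The groups did not overlap, and the arrays with QC6352 were the 3 highest of their 6. MEF2D rose 1.32-fold (log2 fold change 0.40 ± 0.11 SE, limma adjusted p = 0.00509, n = 3 and 3), and 2837 genes rose more. With groups by sample name the difference was 0.38 log2 and not past the threshold (limma adjusted p = 0.177).

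MEF2A, widely expressed and also active in cardiac and skeletal muscle, was at 9.38, 9.24 and 9.20 log2 with QC6352 in Rh30, against 9.15, 9.22 and 9.25 log2 with DMSO. The 2 groups overlapped. The log2 fold change of 0.07 ± 0.11 SE did not pass the test (limma adjusted p = 0.695), with a 95% interval of -0.16 to 0.29. Of all genes, 36.3% passed the threshold of an adjusted p of 0.05 in this comparison, 19.9% higher and 16.5% lower, beside 2 of the 3 MEF2 genes. The share of all genes without overlap was not counted for QC6352 in either line, so non-overlap only describes the arrays.

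**Figure D1:**
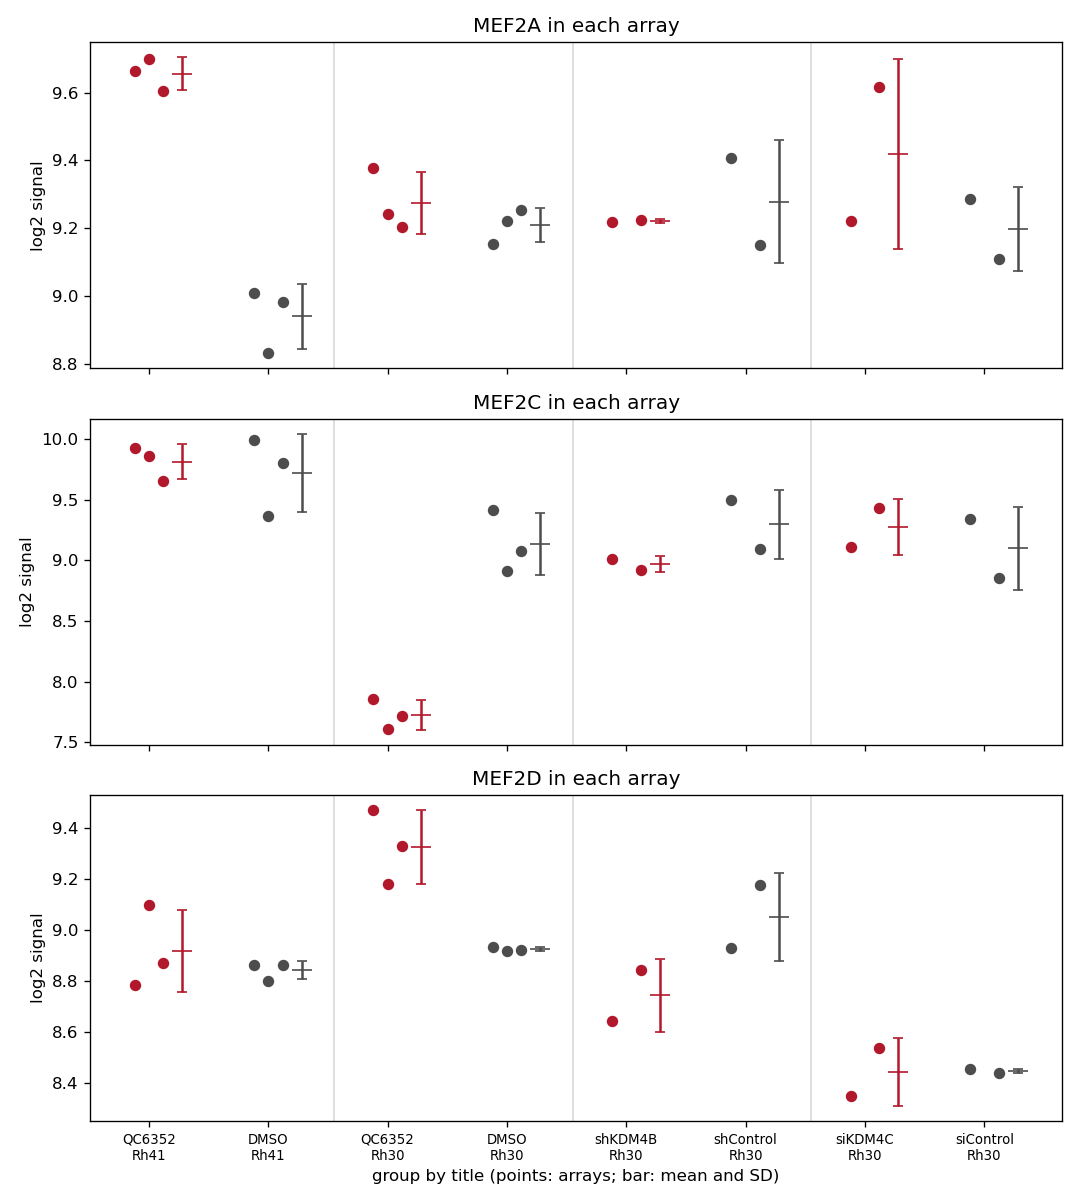
Log2 signal of MEF2A, MEF2C and MEF2D in each of the 20 arrays (points), by group as titled, with the mean and SD of each group as bars. The MEF2A arrays of Rh41 with QC6352 lie at 9.60 to 9.70, above those with DMSO, and the MEF2C arrays of Rh30 with QC6352 lie at 7.61 to 7.85, below all others.

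In Rh41 cells, whose labels do not conflict, MEF2A was the member that changed with QC6352. It was at 9.66, 9.70 and 9.60 log2 with QC6352, against 9.01, 8.83 and 8.98 log2 with DMSO. The groups did not overlap, and their means of 9.66 ± 0.05 and 8.94 ± 0.10 log2 (SD, n = 3 each) lay further apart than the arrays within either group. MEF2A rose 1.64-fold (log2 fold change 0.72 ± 0.11 SE, limma adjusted p = 8.32e-05), and 414 genes rose more. A fit of only the 10 arrays with undisputed labels gave the same fold change with a limma adjusted p of 0.000277.

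MEF2C in Rh41 was at 9.93, 9.86 and 9.65 log2 with QC6352, against 9.99, 9.36 and 9.80 log2 with DMSO. The groups overlapped, and the DMSO array numbered 2 was the lowest of the 6. The log2 fold change of 0.09 ± 0.17 SE did not pass the test (limma adjusted p = 0.800), and its 95% interval of -0.27 to 0.45 does not reach the fall seen in Rh30. MEF2D was at 8.79, 9.10 and 8.87 log2 with QC6352, against 8.86, 8.80 and 8.86 log2 with DMSO. These groups overlapped too, with a log2 fold change of 0.08 ± 0.11 SE (limma adjusted p = 0.717). In this comparison 19.7% of all genes passed the threshold, 10.9% higher and 8.80% lower, beside 1 of the 3 MEF2 genes.

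The responses of the lines to QC6352 were compared directly, as the response in Rh41 minus that in Rh30. The difference was 1.50 ± 0.24 log2 (SE) for MEF2C (limma adjusted p = 0.000209) and 0.65 ± 0.15 log2 for MEF2A (limma adjusted p = 0.00441). For MEF2D it was -0.33 ± 0.15 log2 and did not pass the threshold (limma adjusted p = 0.146). Thus 2 of the 3 MEF2 genes had the higher response in Rh41, beside 10.5% of all genes, while 9.45% had the lower one. With groups by sample name neither call held, at -0.06 log2 for MEF2C (limma adjusted p = 0.947) and 0.59 log2 for MEF2A (limma adjusted p = 0.0692).

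**Figure D2:**
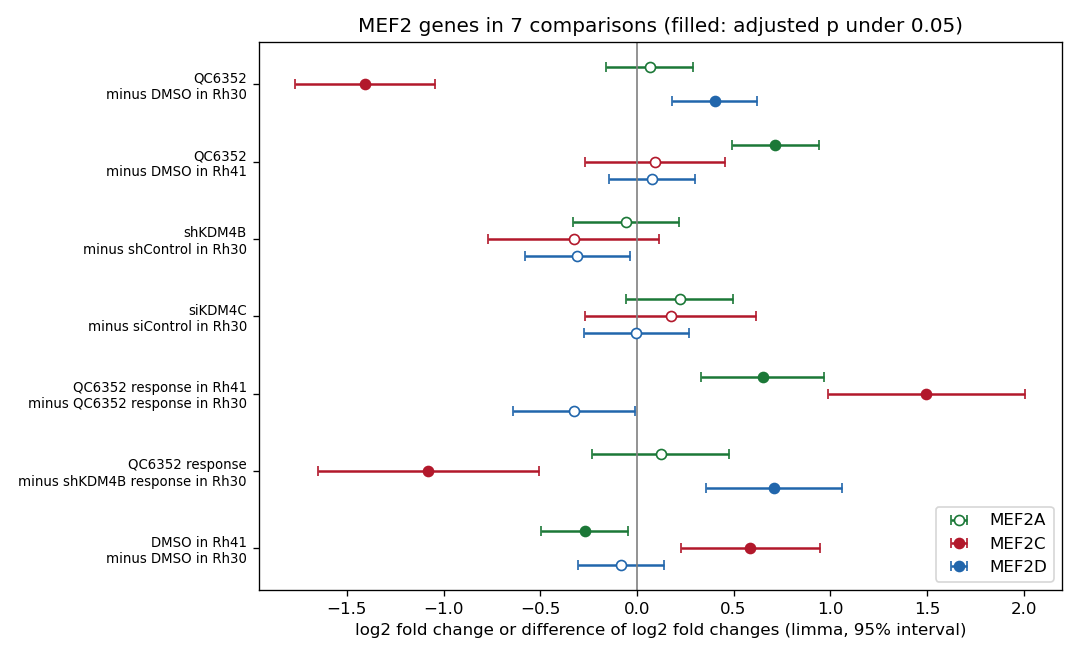
Log2 fold change or difference of log2 fold changes of each MEF2 gene in 7 comparisons (points) with 95% intervals (bars), filled where the limma adjusted p was under 0.05. MEF2C at -1.41 and MEF2D at 0.40 lie on opposite sides of 0 for QC6352 in Rh30, and MEF2A at 0.72 is the filled point for QC6352 in Rh41.

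With the KDM4B hairpin in Rh30, no MEF2 gene passed the limma test (MEF2D alone had an unadjusted p under 0.05, at 0.0282), while 11.6% of all genes did, 5.26% higher and 6.31% lower. MEF2C was at 9.01 and 8.92 log2 with shKDM4B, against 9.50 and 9.09 log2 with shControl. MEF2D was at 8.64 and 8.85 log2 with shKDM4B, against 8.93 and 9.18 log2 with shControl. In both genes the arrays with shKDM4B were the lower 2 of 4 without overlap, as in 22.9% of all genes, with log2 fold changes of -0.33 ± 0.21 SE (limma adjusted p = 0.399) and -0.31 ± 0.13 SE (limma adjusted p = 0.148, 95% interval -0.58 to -0.04). MEF2A was at 9.22 and 9.22 log2 with shKDM4B, between the values of 9.41 and 9.15 log2 with shControl, with a log2 fold change of -0.06 ± 0.13 SE (limma adjusted p = 0.866).

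The responses to QC6352 and to the hairpin in Rh30 were also set against each other, though 48 h of drug and 72 h of hairpin differ in time. The response of MEF2C to QC6352 minus that to shKDM4B was -1.08 ± 0.27 log2 (SE, limma adjusted p = 0.00614). For MEF2D it was 0.71 ± 0.17 log2 (limma adjusted p = 0.00363), with opposite signs of the 2 fold changes. For MEF2A it was 0.12 ± 0.17 log2 (limma adjusted p = 0.684), and of all genes 13.0% had the higher and 11.4% the lower response to QC6352. With groups by sample name the difference was 0.48 log2 for MEF2C (limma adjusted p = 0.605) and 0.69 log2 for MEF2D (limma adjusted p = 0.125).

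In the arrays titled siKDM4C and siControl no MEF2 gene passed the limma test (0 had an unadjusted p under 0.05), while 0.458% of all genes did, 0.266% higher and 0.192% lower. MEF2A was at 9.22 and 9.62 log2 with siKDM4C, against 9.29 and 9.11 log2 with siControl. MEF2C was at 9.11 and 9.43 log2 with siKDM4C, against 9.34 and 8.85 log2 with siControl. MEF2D was at 8.35 and 8.54 log2 with siKDM4C, against 8.45 and 8.44 log2 with siControl. All 3 overlapped between the groups, with log2 fold changes of 0.22 ± 0.13, 0.18 ± 0.21 and -0.00 ± 0.13 (SE) and limma adjusted p values of 0.494, 0.790 and 0.996. The 95% interval of MEF2C ran from -0.27 to 0.62. By sample name MEF2C differed by -0.80 log2 between siKDM4C and siControl (limma adjusted p = 0.304). The 81 genes called here became 1789 without the siKDM4C array numbered 1 and 8 to 14 without any other of the 4.

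Without inhibitor the lines differed in MEF2A and MEF2C. MEF2C averaged 9.72 ± 0.32 log2 in Rh41 and 9.13 ± 0.26 log2 in Rh30 (SD, n = 3 each), with overlapping arrays (difference 0.59 ± 0.17 SE, limma adjusted p = 0.00685). MEF2A averaged 8.94 ± 0.10 log2 in Rh41 and 9.21 ± 0.05 log2 in Rh30 without overlap (difference -0.27 ± 0.11 SE, limma adjusted p = 0.0381). MEF2D averaged 8.84 ± 0.04 log2 in Rh41 and 8.92 ± 0.01 log2 in Rh30 (difference -0.08 ± 0.11 SE, limma adjusted p = 0.528). Here 57.6% of all genes passed, 40.7% higher and 16.8% lower in Rh41, and the median gene was 0.19 log2 higher in Rh41. After centring the arrays on their medians, which moved by 0.26, MEF2C no longer passed (0.33, limma adjusted p = 0.119) and MEF2D was called lower in Rh41 (-0.34, limma adjusted p = 0.0124). The MEF2A difference was -0.53 after centring (limma adjusted p = 0.000536) and -0.55 after quantile normalization (limma adjusted p = 0.000108). The MEF2A call was lost in 4 of 6 fits that left out 1 array, among them the fit without the Rh41 array numbered 2 (-0.21, limma adjusted p = 0.146). By sample name MEF2A was not called (-0.27, limma adjusted p = 0.0744) and MEF2D was called higher in Rh41 (0.43, limma adjusted p = 0.0185).

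The levels of each gene were ordered over the 8 groups by their means. For MEF2C both Rh41 groups stood first and Rh30 with QC6352 last at 7.73 log2, and only this last group did not overlap its neighbour, shKDM4B at 8.97 log2. After centring on array medians siKDM4C stood between the 2 Rh41 groups for MEF2C, and Rh30 with QC6352 was still last. For MEF2A the order ran from Rh41 with QC6352 at 9.66 log2 to Rh41 with DMSO at 8.94 log2, the 1 group that did not overlap its neighbour, so the 2 extremes were groups of a single line, though after centring on array medians siKDM4C stood first. For MEF2D Rh30 with QC6352 stood first at 9.33 log2 and apart from shControl at 9.05 log2. The siControl and siKDM4C arrays stood last for MEF2D at 8.45 and 8.44 log2, apart from the rest. They belong to the set with the lowest array medians, and after centring Rh41 with DMSO was the lowest MEF2D group.

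Genes with the most similar pattern were found by Pearson correlation of the 8 group means over 15413 genes whose means span at least 0.5 log2. The points share the 3 sets of arrays with different medians, so r is a description. For MEF2A they were IL6ST (r = 0.922), TAF1A (0.899), RPS6KA5 (0.899), PLAU (0.892) and PLEKHA1 (0.880). For MEF2C they were HNRNPA1 (r = 0.987), ATG10 (0.985), MCUB (0.983), MNAT1 (0.981) and MRPS10 (0.981). HNRNPA1 was at 11.55 log2 in Rh30 with QC6352, against 12.44 log2 with DMSO, the same low group as for MEF2C. For MEF2D they were TMCO6 (r = 0.984), PROX1 (0.981), ZNF491 (0.981), ZNF479 (0.981) and DAXX (0.980). DAXX was at 8.09 and 8.14 log2 in the siControl and siKDM4C groups and at 9.08 log2 in Rh30 with QC6352, so its similarity to MEF2D includes the low set of siRNA arrays.

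**Figure D3:**
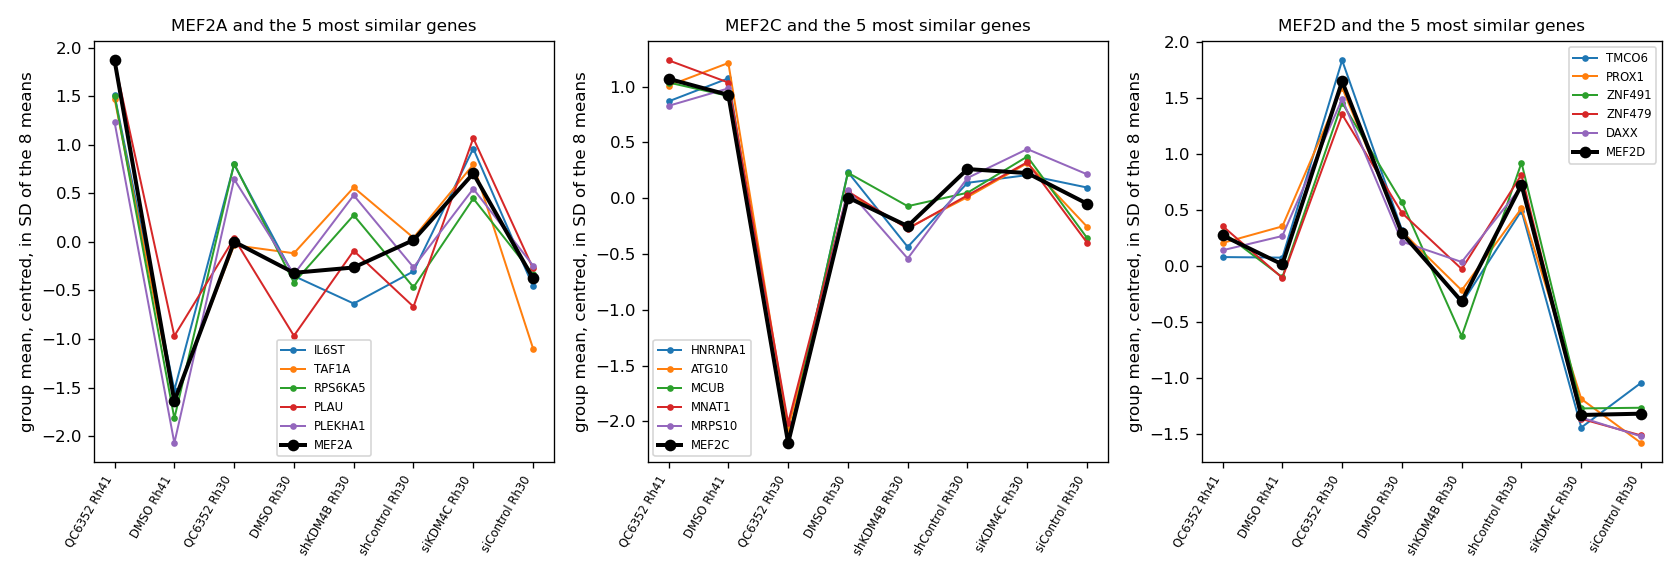
Group means of each MEF2 gene (black) and its 5 most similar genes over the 8 groups, centred and divided by the SD of the 8 means. The MEF2C panel turns on the low point of Rh30 with QC6352, the MEF2A panel on the 2 Rh41 groups, and the MEF2D panel on Rh30 with QC6352 and the siRNA groups.

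The genes that MEF2 factors work with were described by lists of regulators, partners and targets. The closest partners changed with QC6352 in Rh30. Of 7 genes of myogenic bHLH factors and of E proteins that pair with them, 5 fell and 0 rose (71.4%, beside 36.3% of all genes). The list median was -0.94 log2 against 0.05 log2 for all genes. MYOG, the gene of myogenin, was at 9.06, 9.34 and 9.03 log2 with QC6352, against 11.72, 11.76 and 11.82 log2 with DMSO, without overlap. It fell by 2.63 log2 (SE 0.10, limma adjusted p = 3.94e-13), and MYOD1, which commits cells to the muscle lineage, fell by 1.37 ± 0.12 log2. MYF5, an early determination factor, fell by 1.29 ± 0.15 log2 and TCF12, an E protein that pairs with these factors, fell by 0.94 ± 0.11 log2. MYF6 was at 3.83 log2 with QC6352 and 4.05 log2 with DMSO, near the background probe sets. In Rh41 none of the 7 passed the limma test (1 at an unadjusted p under 0.05), beside 19.7% of all genes. MYOG was at 12.01, 12.17 and 12.06 log2 with QC6352 there, against 11.82, 11.87 and 11.72 log2 with DMSO (limma adjusted p = 0.0530). The responses of 5 of the 7 differed between the lines, all higher in Rh41, with MYOG at 2.91 ± 0.14 log2 and MYOD1 at 1.16 ± 0.17 log2. Of all genes, 10.5% had the higher and 9.45% the lower response in Rh41. By sample name 0 of the 7 responses differed in the limma fit (0 at an unadjusted p under 0.05), and the list median of the difference was -0.35 log2 in place of 0.91 log2.

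Of 25 muscle targets of MEF2, 5 rose and 4 fell with QC6352 in Rh30 (36% called, beside 36.3% of all genes), and the list median of 0.06 log2 stood beside 0.05 log2 for all genes. Some targets were low already with DMSO, where a fall could hardly show. MYF6 was near the background probe sets, and CKM was at 4.63 log2, against a background of up to 3.98 log2. MSTN, which encodes myostatin, an inhibitor of muscle growth, was at 5.75, 5.97 and 5.96 log2 with QC6352, against 9.32, 9.36 and 9.53 log2 with DMSO. It fell 11.4-fold (log2 fold change -3.51 ± 0.12 SE, limma adjusted p = 1.21e-13), and MYOG is also on this list. XIRP1, whose window is shown above, rose by 1.56 ± 0.16 log2 and ENO3, the muscle form of enolase, by 0.81 ± 0.12 log2. In Rh41, 1 target of the 25 passed (4%, beside 19.7% of all genes), ATP2A2, the calcium pump of the sarcoplasmic reticulum, at -0.30 log2. MSTN was at 11.10, 11.09 and 11.00 log2 with QC6352 there, against 11.13, 11.06 and 11.07 log2 with DMSO. The MSTN response differed between the lines by 3.49 ± 0.16 log2 (limma adjusted p = 3.31e-10). With shKDM4B XIRP1 rose by 1.23 ± 0.19 log2 and ENO3 fell by 0.64 ± 0.15 log2, and in the arrays titled siKDM4C MSTN was higher by 1.17 ± 0.14 log2 (limma adjusted p = 0.000769). That siKDM4C call of 1 target became 0 with the compared arrays alone and by sample name.

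Of 12 targets of MEF2 that respond to signals, 6 rose and 0 fell with QC6352 in Rh30 (50%, beside 36.3% of all genes), with a list median of 0.36 log2. NR4A1, an orphan nuclear receptor induced by calcium signals, was at 10.67, 9.83 and 10.54 log2 with QC6352, against 7.08, 7.22 and 7.17 log2 with DMSO. RGS2, an inhibitor of G protein signals, was at 8.03, 8.13 and 7.98 log2 with QC6352, against 5.16, 5.08 and 4.71 log2 with DMSO. Neither gene's groups overlapped, with log2 fold changes of 3.19 ± 0.15 SE for NR4A1 and 3.06 ± 0.12 SE for RGS2. KLF4 rose by 1.21 ± 0.16 log2 and EGR1, an immediate early factor, by 0.99 ± 0.13 log2. In Rh41 2 of the 12 rose (16.7%, beside 19.7% of all genes), RGS2 by 1.24 ± 0.12 log2 and the kinase gene SIK1 by 0.67 ± 0.20 log2. With shKDM4B 3 rose (25%, beside 11.6% of all genes), RGS2 by 0.94 ± 0.15, KLF4 by 0.79 ± 0.19 and KLF6 by 0.51 ± 0.11 log2. The list median was 0.38 log2 against 0.03 log2 for all genes. The 3 called with shKDM4B became 0 by sample name and 5 in the fit of the 10 undisputed arrays. Their fold changes were the same in these fits, and the estimated spread differed. The response to QC6352 in Rh41 minus that in Rh30 was -2.84 ± 0.22 log2 for NR4A1 and -1.82 ± 0.17 log2 for RGS2.

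HDAC4 and HDAC5, class IIa deacetylases that repress MEF2, fell with QC6352 in both lines, while HDAC7 and HDAC9 did not pass the test in either. Of 10 repressors measured, 2 rose and 3 fell in Rh30 (50%, beside 36.3% of all genes), and 1 rose and 2 fell in Rh41 (30%, beside 19.7% of all genes). For Rh41 the fit of the 10 undisputed arrays called 5 of them, and the fit of all arrays by sample name called 0, each with the same fold changes. HDAC4 was at 7.87, 7.97 and 7.91 log2 with QC6352 in Rh30, against 8.78, 8.88 and 8.70 log2 with DMSO, a log2 fold change of -0.87 ± 0.09 SE (limma adjusted p = 4.07e-07). In Rh41 HDAC4 was at 7.86, 7.81 and 7.95 log2 with QC6352, against 8.34, 8.40 and 8.35 log2 with DMSO, a log2 fold change of -0.48 ± 0.09 SE (limma adjusted p = 0.000897). The HDAC4 groups did not overlap in either line. HDAC5 fell by 1.00 ± 0.11 log2 in Rh30, fell by 0.34 ± 0.11 log2 in Rh41 and fell by 0.79 ± 0.13 log2 with shKDM4B. HDAC4 fell further in Rh30 than in Rh41 (difference 0.39 ± 0.13 log2, limma adjusted p = 0.0436), as did HDAC5 (0.67 ± 0.15 log2, limma adjusted p = 0.00434). These 2 calls among the repressors became 1 with quantile normalization, with centring and with the replicate block, and 0 by sample name. CABIN1, a calcium-regulated corepressor of MEF2, rose by 0.55 ± 0.12 log2 in Rh30 and by 0.37 ± 0.12 log2 in Rh41. The nuclear lamin gene LMNB1 fell by 0.55 ± 0.09 log2 in Rh30, and in the arrays titled siKDM4C HDAC4 was lower by 0.52 ± 0.11 log2 (limma adjusted p = 0.0478). That siKDM4C call was lost with array weights, with the compared arrays alone, with the replicate block and by sample name.

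Of 27 kinases, phosphatases and their regulators that act on MEF2 or class IIa deacetylases, 7 rose and 11 fell with QC6352 in Rh30 (66.7%, beside 36.3% of all genes), with a list median of -0.14 log2. MAP2K5, the kinase upstream of ERK5, was at 5.03, 5.66 and 4.85 log2 with QC6352, against 7.55, 7.38 and 7.66 log2 with DMSO, without overlap. It fell by 2.35 ± 0.21 log2, and PRKD1, a kinase that drives class IIa deacetylases out of the nucleus, fell by 2.26 ± 0.15 log2. PPP3CA, a catalytic subunit of calcineurin, fell by 1.95 ± 0.10 log2 and the calcium-dependent kinase gene CAMK2D fell by 1.54 ± 0.12 log2. In Rh41 6 rose and 5 fell (40.7%, beside 19.7% of all genes), among them MAP2K5 (-1.54 ± 0.21 log2), the kinase gene CDK5 (-0.80 ± 0.13 log2) and PRKD1 (-0.60 ± 0.15 log2). PPP3CA was at 10.68, 10.73 and 10.58 log2 with QC6352 in Rh41, against 10.78, 10.81 and 10.79 log2 with DMSO, and its response differed between the lines by 1.82 ± 0.14 log2 (limma adjusted p = 4.73e-08). With shKDM4B 7 rose and 2 fell (33.3%, beside 11.6% of all genes), and the count of 9 became 2 with the compared arrays alone. PPP3CB, another catalytic subunit of calcineurin, was at -1.31 ± 0.14 log2, and RCAN1, a calcineurin inhibitor, at 0.91 ± 0.11 log2. In the arrays titled siKDM4C 0 of the 27 passed the limma test (beside 0.458% of all genes) and 4 had an unadjusted p under 0.05.

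Among 7 factors that act in the splicing of MEF2 alternative exons or bind similar elements, 2 rose and 3 fell with QC6352 in Rh30 (71.4%, beside 36.3% of all genes), and 0 rose and 3 fell in Rh41 (42.9%, beside 19.7%). MBNL1, a splicing factor that accumulates as muscle differentiates, was at 7.82, 8.39 and 8.20 log2 with QC6352 in Rh30, against 10.46, 10.42 and 10.43 log2 with DMSO. In Rh41 MBNL1 was at 9.68, 9.78 and 9.75 log2 with QC6352, against 10.73, 10.62 and 10.79 log2 with DMSO. Its groups did not overlap in either line, with log2 fold changes of -2.30 ± 0.12 SE in Rh30 and -0.98 ± 0.12 SE in Rh41. RBFOX1, which promotes muscle exons of MEF2 in mouse cells, fell by 2.27 ± 0.11 log2 in Rh30 and fell by 1.17 ± 0.11 log2 in Rh41. Both fell further in Rh30, with differences of 1.32 ± 0.17 log2 for MBNL1 and 1.10 ± 0.16 log2 for RBFOX1. CELF2 fell by 0.88 ± 0.10 log2 and CELF1 rose by 0.50 ± 0.14 log2 in Rh30, and RBFOX2 fell by 0.40 ± 0.10 log2 in Rh41 and rose by 0.44 ± 0.12 log2 with shKDM4B.

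Of 14 coactivators and partners, 3 rose and 5 fell with QC6352 in Rh30 (57.1%, beside 36.3% of all genes), and 2 rose and 1 fell in Rh41 (21.4%, beside 19.7%). ASH2L, a subunit of histone H3 methyltransferase complexes, rose by 0.80 ± 0.12 log2 in Rh30 and by 0.40 ± 0.12 log2 in Rh41. The coactivator gene NCOA2 fell by 0.70 ± 0.12 log2 in Rh30, and SMARCA4, the ATPase of a chromatin remodeller, fell by 0.58 ± 0.12 log2. SMARCA4 also fell with shKDM4B (-0.66 ± 0.15 log2) and in the arrays titled siKDM4C (-0.75 ± 0.15 log2, limma adjusted p = 0.0302), where array weights, the compared arrays alone, the replicate block and groups by sample name each called 0 coactivators. NFATC1, a factor activated by calcineurin, rose by 0.56 ± 0.11 log2 in Rh30 and fell by 0.58 ± 0.11 log2 in Rh41, and these responses differed by -1.14 ± 0.15 log2 (limma adjusted p = 2.34e-05). With shKDM4B 1 rose and 4 fell (35.7%, beside 11.6% of all genes), with the acetyltransferase gene KAT2B at -1.55 ± 0.19 log2. The 5 called became 1 with the compared arrays alone, 2 with the replicate block and 3 with centring. With groups by sample name, none of the members of these 7 lists passed the test for QC6352 in Rh30, in a limma fit that called 89 genes, and 0 to 5 of a list had an unadjusted p under 0.05. For the difference of the QC6352 responses between the lines, limma by sample name called 0 muscle targets in place of 8, 0 signal-dependent targets in place of 5, 0 splicing factors in place of 3, 1 coactivator in place of 3 and 1 kinase or phosphatase in place of 13, with 0 to 7 of a list at an unadjusted p under 0.05. With shKDM4B it called 2 kinases or phosphatases in place of 9, 1 coactivator in place of 5, 0 splicing factors in place of 1 and 0 repressors in place of 1. The shKDM4B fold changes themselves were unchanged there.

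**Figure D4:**
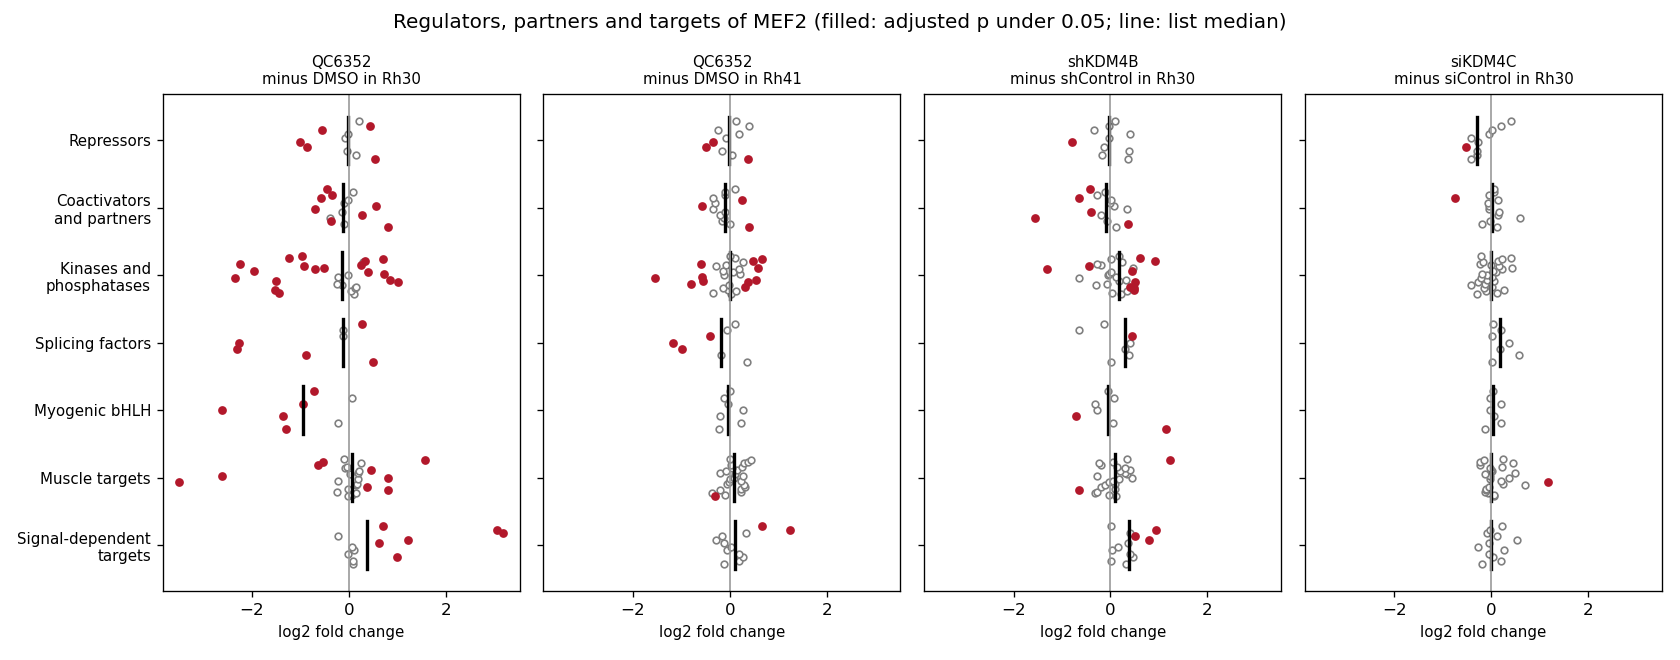
Log2 fold changes of the measured members of 7 lists of MEF2 regulators, partners and targets in the 4 treatment comparisons, filled where the limma adjusted p was under 0.05, with the list median as a line. For QC6352 in Rh30 the median of the myogenic bHLH factors and their E protein partners lies at -0.94 and that of the signal-dependent targets at 0.36.

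The consensus shown above stood in a window of 5 of 18 muscle targets with a window (27.8%), and in 4 of 11 signal-dependent targets (36.4%), against 3.67% of all genes with a window. Both lists were written as known MEF2 targets, so these shares describe the lists and are no test of them. The consensus also stood in 2 of 6 genes of the bHLH list (33.3%) and 1 of 11 repressors (9.09%). It stood in 0 of 15 coactivators and partners, 0 of 25 kinases and phosphatases and 0 of 7 splicing factors. The muscle targets were MYF6, SRPK3, XIRP1, XIRP2 and ATP2A2, and the signal-dependent targets were JUN, KLF2, HDAC9 and BDNF. These genes did not share a direction with QC6352 in Rh30, where XIRP1 and KLF2 rose, SRPK3 fell by 0.65 log2 and the other 6 did not pass the limma test. Among these 6, MYF6 and BDNF (3.88 log2 with QC6352 and 3.80 log2 with DMSO) were near the background probe sets. JUN, which encodes a subunit of AP-1, was at 10.69, 10.66 and 10.67 log2 with QC6352, against 10.61, 10.64 and 10.57 log2 with DMSO (limma adjusted p = 0.653). HDAC9, both a MEF2 target and a MEF2 repressor, was at 7.54, 7.85 and 7.76 log2 with QC6352, against 7.75, 7.88 and 7.57 log2 with DMSO (limma adjusted p = 0.930).

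Marker lists moved with some of these results, and their part in them was not tested. Of 8 markers of the skeletal muscle lineage, a list that shares MYOD1, MYOG and MYF5 with the bHLH genes, 5 fell with QC6352 in Rh30 (62.5%, beside 36.3% of all genes). The mean level of these 8 was 8.80 to 8.97 log2 per array with QC6352 in Rh30, against 10.02 to 10.06 log2 with DMSO. In Rh41 it was 9.44 to 9.52 log2 with QC6352, against 9.41 to 9.51 log2 with DMSO. The same list had 1 higher and 4 lower members with shKDM4B in Rh30 (62.5%, beside 11.6% of all genes). Its list median there was -0.39 log2. The mean level of the 8 was 9.43 to 9.497 log2 per array with shKDM4B, against 9.876 to 9.999 log2 with shControl. The shKDM4B count of 5 became 3 with the compared arrays alone and 2 by sample name. With QC6352 in Rh30, 1 of 6 epithelial (16.7%), 1 of 5 blood (20%) and 2 of 6 fibroblast markers (33.3%) rose and 1 of 5 endothelial markers (20%) fell. Counted either way, these shares are below the 36.3% of all genes called there. By direction, 19.9% of all genes were higher and 16.5% lower. The fibroblast share was above the 19.9%, the blood share was near it and the epithelial share below it. The endothelial share was above the 16.5%. The epithelial count of 1 became 2 with centring and with the replicate block. The fibroblast list averaged 6.89 to 7.07 log2 per array with QC6352 in Rh30, against 6.68 to 6.71 log2 with DMSO. The blood list averaged 5.2 to 5.4 log2 there with QC6352, against 4.9 to 5.1 log2 with DMSO. On the blood list PTPRC, the general marker of blood cells, stayed near the background probe sets in all groups. CD14 was above them, at 6.19 log2 with QC6352 in Rh30 and 6.12 log2 with DMSO.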

How the data were processed

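Clariom S arrays gave 1 log2 signal per probe set, taken as the authors deposited it, between 2.22 and 14.22. The submitters' processing notes name GCOS without a version. How background was removed, probes were summarized and arrays were normalized is not given in the sources used here. Precision is limited by the number of arrays, 2 or 3 a group. Of 24351 probe sets, 17709 carry 1 gene symbol, none several and 6642 none. The probe set with the highest mean stood for a gene, which left out 22 others and gave 17687 genes. Background is the median of 23 control probe sets per array, 3.64 to 4.01 log2.

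Groups follow the sample titles. 1 array titled shRNA was placed with siKDM4C, which its source name gives. All 20 arrays entered 1 limma fit of 8 group means (lmFit and eBayes of limma 3.58.1, R 4.3.3, 12 residual degrees of freedom), with p values adjusted by the Benjamini-Hochberg method over 17687 genes and a threshold of 0.05. The fit was checked on simulated data. Windows were searched with Python 3.11.15 in the promoter table of RefSeq, GRCh38.p14.

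The MEF2 genes and the 12 gene lists were chosen with earlier results of these data known. List members without a value, such as NCOR1, EP300 and MAPK14, are not used here. Named are the 3 MEF2 genes, KDM4B and KDM4C, up to 4 list members per comparison with the largest change past the threshold, and the 5 genes most similar to each MEF2 gene. List members with the consensus, and values of list genes that did not pass, were named after their values were seen. The alternatives were quantile normalization, centring on array medians, leaving out the lowest 40% of probe sets, array weights, eBayes with trend and robust, a fit of the arrays compared only, a replicate block, groups by sample name, every probe set with a symbol and leaving out each array. A fit of the 10 arrays with undisputed labels and a crossed block in the siRNA arrays were chosen after seeing the data.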

Additional observations from a re-analysis of the deposited data

Results flagged for a closer look

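Tests of a difference between responses stood out for 4 results. The response to QC6352 in Rh41 minus that in Rh30 was 0.65 log2 for MEF2A and 1.50 log2 for MEF2C, each past the limma threshold as an interaction of line and drug. The response to QC6352 minus the response to shKDM4B in Rh30 was -1.08 log2 for MEF2C and 0.71 log2 for MEF2D, also past the limma threshold as an interaction. All 4 rest on Rh30 arrays whose labels conflict, and none was past the threshold with groups by sample name. Groups of 2 or 3 arrays are too small to test a single array as an outlier.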

How the results depend on the processing

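With groups by sample name, MEF2C with QC6352 in Rh30 changed sign to 0.15, MEF2D there (0.38) lost its call, the siKDM4C values became -0.0929 for MEF2A, -0.80 for MEF2C and 0.0587 for MEF2D, and the difference between the lines became 0.59 for MEF2A (not called) and -0.0569 for MEF2C. The difference between QC6352 and shKDM4B became 0.48 for MEF2C and 0.69 for MEF2D (not called), and DMSO in Rh41 against Rh30 gave -0.27 for MEF2A (not called) and 0.43 for MEF2D (called). The call of MEF2A with QC6352 in Rh41 held. Sample names leave the Rh41, shKDM4B and shControl groups as titled, so counts that moved within them did so at unchanged fold changes. For DMSO in Rh41 against Rh30, quantile normalization gave 0.32 for MEF2C (not called) and -0.37 for MEF2D (called), and centring gave 0.33 and -0.34 with the same calls. Their cause was not tested.

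The labels do not say whether replicate numbers pair the arrays. Deviations of same-numbered arrays correlated at 0.26, 0.06 and 0.08 in Rh30 and at -0.19, -0.06 and -0.08 in Rh41 with the drug. Differently numbered arrays correlated at -0.16 to 0.09 in Rh30 and at -0.07 to 0.13 in Rh41. Same-numbered arrays gave 0.09 for the hairpin and -0.21 for the siRNA, where groups of 2 fix the other values at the opposite sign. These values cannot decide whether arrays were paired. With the replicate block, MEF2A between the lines with DMSO was -0.27 (limma adjusted p = 0.0807), and no other MEF2 call changed. The siKDM4C count of 81 genes became 19 with the replicate block, 46 with a crossed block, 341 without the lowest 40% of probe sets, 438 with trend and robust, 9 with array weights and 0 with the compared arrays alone or by sample name. By limma with groups by sample name the count was 89 in place of 6427 for QC6352 in Rh30, 1537 in place of 3479 in Rh41, 725 in place of 2047 for shKDM4B (826 with the compared arrays alone, 1039 to 1179 without 1 of 3 of its arrays), 762 in place of 3534 between the lines and 613 in place of 4331 between drug and hairpin.

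Leaving out 1 array gave -0.0867 to 0.23 for MEF2C and -0.0129 to 0.14 for MEF2D with QC6352 in Rh41, -0.19 to 0.0701 for MEF2A with shKDM4B, -0.0673 to 0.42 for MEF2C and -0.10 to 0.0916 for MEF2D with siKDM4C, -0.0047 to 0.25 for MEF2A between drug and hairpin, and -0.30 to -0.21 for MEF2A between the lines with DMSO. The lone array left in a pair was assumed to vary like the other groups. The other MEF2 calls held whichever array was left out, with MEF2C at -1.52 to -1.27 and MEF2D at 0.33 to 0.47 for QC6352 in Rh30, and MEF2A at 0.66 to 0.75 in Rh41. Short lists depended on the setting, as muscle targets called with QC6352 in Rh41 became 5 in place of 1 in the fit of 10 undisputed arrays, and signal-dependent targets 4 in place of 2. By sample name the same fit of all arrays called 1 splicing factor in place of 3 and 4 kinases or phosphatases in place of 11 in Rh41.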
